A study of Mus musculus with 2 samples.

Results

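Laminins, nidogens and integrins are the genes of the basement membrane and of the receptors that hold cells to it. The 42 genes described here are the protein-coding genes of the GENCODE M21 annotation whose symbols name laminin chains (11 genes), nidogens, integrin alpha and beta subunits, the proteoglycans agrin and perlecan, or dystroglycan. They were taken by symbol, with no measured value in the rule, from 22028 protein-coding genes and 55536 genes in all. The set was chosen with earlier results of these data known.

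Polyadenylated RNA was measured in midbrain, the part of the neural tube between forebrain and hindbrain, of healthy mouse embryos of the strain B6NCrl at 12.5 days of gestation. There was 1 group and no treatment, with 2 libraries: replicate 1 from 120 pooled embryos and replicate 2 from 88, males and females mixed. Each library was made from 10 ng of RNA with oligo-dT priming, tagmentation and added ERCC control RNAs. With 1 library per pool no test between the pools was possible, and no p-value is given.

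A basement membrane is a thin sheet of extracellular matrix under epithelia and around vessels. Its laminin network is made of trimers of an alpha, a beta and a gamma chain, nidogens link that network to collagen IV, and the heparan sulfate proteoglycans perlecan and agrin bind to it. Integrins, each an alpha paired with a beta subunit, and dystroglycan are the cell surface receptors. In the developing brain a basement membrane at the outer surface anchors the endfeet of radial neural progenitors, and another surrounds the invading blood vessels.

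Gene identifiers are mapped to genome assembly mm10 in the annotation. The total expected count on genes was 29056787 in replicate 1 and 37122499 in replicate 2. Otx2, a transcription factor gene of forebrain and midbrain, stood at 143 ± 2.58 TPM (a level per transcript length, scaled to an equal sum in each library; here and below mean ± SD, n = 2). En1, of the midbrain-hindbrain boundary region, stood at 6.83 ± 1.74 TPM. Markers of cell types other than neural ones were present: all 10 endothelial, all 8 pericyte and smooth muscle and all 12 meningeal and mesenchymal marker genes reached 1 TPM in both libraries. In whole tissue, fewer cells of a type and less RNA per cell cannot be told apart.

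Some members are spliced in ways that set what the protein does, and 5 alternative exons are shown because the transcript results below turn on them. In agrin, short exons near the end of the coding sequence insert 4 codons at the y site, which adds heparin binding, and 8 and 11 codons at the z site. The z inserts, known from neurons, let agrin act on its muscle receptor at the neuromuscular junction. The lines below give the spliced transcript strand, 5′ to 3′, with the alternative exons in capitals and 20 bases of the neighbouring coding exons in lower case.
Agrn y exon in: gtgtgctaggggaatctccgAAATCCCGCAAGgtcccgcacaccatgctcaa
Agrn y exon out: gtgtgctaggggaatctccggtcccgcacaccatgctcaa
Agrn z exons in: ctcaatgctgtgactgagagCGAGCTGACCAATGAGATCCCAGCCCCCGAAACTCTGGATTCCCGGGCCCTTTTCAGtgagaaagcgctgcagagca
Agrn z exons out: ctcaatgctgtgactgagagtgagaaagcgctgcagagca

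The y exon of 12 bases lies at chr4:156169546-156169557 on the minus strand of mm10. The z exons of 24 and 33 bases lie at chr4:156168546-156168569 and chr4:156167777-156167809, also on the minus strand. All 3 have lengths that keep the reading frame.

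In the integrin alpha subunits Itga6 and Itga3, 1 exon decides between alternative cytoplasmic tails, called A where the exon is spliced in and B where it is skipped. The coding part of that exon is shown for each, with the longest run of bases common to both, 12 bases, in capitals.
Itga6 exon: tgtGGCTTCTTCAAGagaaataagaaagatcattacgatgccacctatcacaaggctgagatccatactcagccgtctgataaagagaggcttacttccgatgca
Itga3 exon: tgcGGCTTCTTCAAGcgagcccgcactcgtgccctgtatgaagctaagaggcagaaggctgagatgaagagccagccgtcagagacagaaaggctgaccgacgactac

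The Itga6 sequence is chr2:71853534-71853638 on the plus strand and codes for 35 residues. The Itga3 sequence is chr11:95046483-95046590 on the minus strand and codes for 36 residues. The shared run lies at the same place in both exons, after the opening codon.

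Of the 42 genes, 29 (69%) reached 1 TPM in both libraries, beside 59.4% of all protein-coding genes. The median level of the 29 was 15.6 TPM, below the median of 22.2 TPM over the 13083 protein-coding genes that reached the same limit. Levels ran from agrin and Itgb1 above 100 TPM to the leukocyte subunit Itgad, with 1 count in the 2 libraries together. Together the members took 0.186% of the gene counts in replicate 1 and 0.196% in replicate 2.

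**Figure D1:**
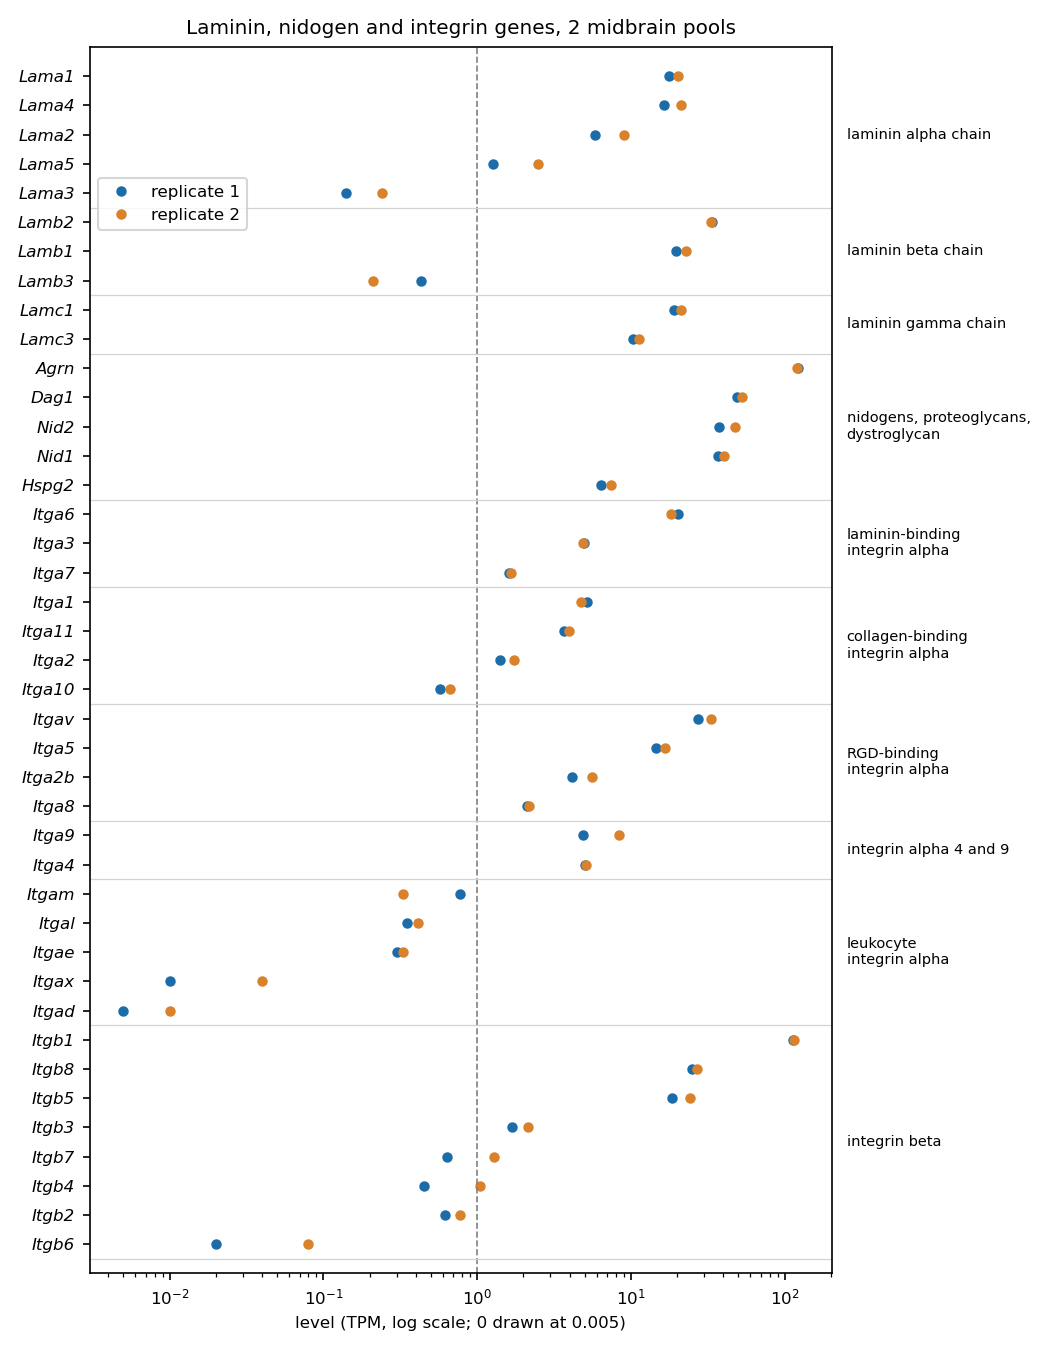
Level of 41 of the 42 genes in TPM (log axis) in replicate 1 (blue) and replicate 2 (orange), grouped by role, with a dashed line at 1 TPM. Agrn and Itgb1 stand highest, all 5 leukocyte alpha subunits lie left of the line, and the 2 points of the abundant genes nearly coincide.

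Among the laminin alpha chains, which carry the receptor-binding domains, Lama1 and Lama4 were the highest. Lama1, the alpha chain of early embryonic and brain surface basement membranes, was at 17.7 TPM in replicate 1 and 20.2 in replicate 2. Lama4, a chain of vessel and mesenchymal basement membranes, was at 16.3 and 21.3 TPM. Their ranges overlapped, and the order of the pair turned between the libraries. Lama2, best known from muscle and peripheral nerve, followed at 5.85 and 8.97 TPM and lay below both in each library. Lama5, the broadly expressed epithelial and vascular chain, was at 1.27 and 2.50 TPM, and Lama3, the chain of skin basement membrane, at 0.14 and 0.24 TPM.

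Among the beta chains, Lamb2 at 33.6 and 33.1 TPM exceeded Lamb1 at 19.8 and 23.0 TPM, a ratio of 1.57 ± 0.184 within libraries. Counting only transcripts annotated as coding, the ratio was 1.36 ± 0.0391. Lamb3, a beta chain of skin basement membrane, was at 0.43 and 0.21 TPM on 14 and 19 counts. Of the gamma chains, Lamc1, the gamma chain of most laminins, was at 19.1 and 21.1 TPM. Lamc3 was the other detected gamma chain, at 10.3 and 11.4 TPM, so that Lamc1 exceeded it 1.85 ± 0.00548 times. Summed by class over all transcripts, the alpha chains reached 47.2 ± 8.44 TPM, the beta chains 55.1 ± 1.76 TPM and the gamma chains 31.4 ± 2.44 TPM. Over coding transcripts alone the alpha chains came to 28 ± 2.78 TPM, the beta chains to 48.5 ± 2.45 TPM and the gamma chains to 31.2 ± 2.23 TPM. The beta chains exceeded the gamma chains in both libraries on either sum, whereas the alpha chains lay above the gamma chains on one sum and below them on the other.

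The nidogens, the proteoglycans and dystroglycan were all detected and included the most abundant matrix gene of the set. Agrn (ENSMUSG00000041936.18, chr4:156165290-156197488) was at 122.4 and 121.4 TPM on 10396 and 13058 counts. Hspg2, the gene of perlecan, was at 6.36 and 7.45 TPM, and Agrn exceeded it 17.8 ± 2.09 times. Over coding transcripts the factor was 10.6 ± 0.752. Of the nidogens, Nid1 was at 37.1 and 40.6 TPM and Nid2 at 37.2 and 47.7 TPM. Dag1, which codes for both subunits of dystroglycan, a receptor for laminin, agrin and perlecan, was at 49.4 and 52.5 TPM.

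The integrin alpha subunits that bind laminin were led by Itga6, at 20.2 and 18.2 TPM. Itga3 was at 4.99 and 4.91 TPM, so that Itga6 exceeded it 3.88 ± 0.244 times over all transcripts and 2.87 ± 0.436 times over coding ones. Itga7, known from muscle, was at 1.62 and 1.65 TPM. Of the collagen-binding subunits, Itga1 was at 5.19 and 4.74 TPM, Itga11 at 3.66 and 3.94, Itga2 at 1.40 and 1.74 and Itga10 at 0.57 and 0.67. Only Itga10 of these 4 missed the limit of 1 TPM.

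Itgav was the highest alpha subunit. It pairs with several beta subunits and binds the RGD motif of ligands such as vitronectin and latent TGF-beta, and it was at 27.5 and 33.1 TPM. Itga5, the alpha subunit of the main fibronectin receptor, was at 14.5 and 16.6 TPM, or 0.515 ± 0.0173 of Itgav. Itga2b, the platelet fibrinogen receptor subunit, was at 4.13 and 5.55 TPM, and Itga8, a nephronectin receptor subunit, at 2.12 and 2.17 TPM. Itga4, which binds VCAM1 and fibronectin, was at 5.00 and 5.08 TPM, and the related Itga9 at 4.91 and 8.32 TPM.

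Megakaryocyte and platelet markers were measured beside Itga2b: 7 of 9 reached 1 TPM in both libraries, their summed level was 70.9 and 85.6 TPM, and none was at 0. Microglia and macrophage markers reached 1 TPM in 11 of 12 cases, with sums of 118 and 145 TPM. The leukocyte alpha subunits were all low, and none of the 5 reached 1 TPM in either library. Itgam, the microglial and myeloid complement receptor subunit, was at 0.77 and 0.33 TPM, Itgal at 0.35 and 0.41, Itgae at 0.30 and 0.33 and Itgax at 0.01 and 0.04. Itgad had 0 counts in replicate 1, which allows up to 0.0644 TPM by counting error alone (3 counts), and 1 count in replicate 2. Of the lymphocyte and neutrophil markers 2 of 10 reached 1 TPM, and Cd3e, Cd3g, Ms4a1 and Ly6g were at 0 in both libraries.

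Itgb1, the beta subunit that most of these alpha subunits pair with, dominated the beta subunits (ENSMUSG00000025809.15, chr8:128685654-128733200). It was at 113.8 and 115.7 TPM on 7860 and 10135 counts. That was 1.19 ± 0.0678 times the sum of the 12 alpha subunits that can pair with it, Itga1 to Itga11 and Itgav, and 1.5 ± 0.0934 times over coding transcripts. Itgb8, the partner of Itgav in TGF-beta activation by neural progenitors, was at 24.8 and 26.8 TPM. Itgb5, which also pairs with Itgav, was at 18.4 and 24.3 TPM, and the 2 genes changed order over coding transcripts in replicate 2, where the ratio of Itgb8 to Itgb5 was 0.945. Itgb3, the partner of Itgav and Itga2b, was at 1.69 and 2.16 TPM. The other 4 beta subunits did not reach 1 TPM in both libraries. Itgb7, of lymphocytes, was at 0.64 and 1.29 TPM on 8 and 20 counts, Itgb4, of hemidesmosomes, at 0.45 and 1.04, Itgb2, of leukocytes, at 0.62 and 0.77, and Itgb6, of epithelia, at 0.02 and 0.08. Surface epithelium markers reached 1 TPM in 7 of 8 cases, with sums of 27 and 34.3 TPM, and the part of such cells in the low levels of Itgb4, Lama3 and Lamb3 was not tested.

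A gene's TPM depends on which transcript models receive its reads, because a short model turns few reads into a high level. For 6 of the 19 members at 5 TPM or more in both libraries, under 75% of the TPM in each library lay on transcripts annotated as protein coding, beside 26% of all such protein-coding genes. The 6 were Agrn, Itga6, Lama1, Lama4, Hspg2 and Itga4. The median coding share was 87.1% for the 19 and 90.2% for all protein-coding genes at that level.

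Agrn showed the largest effect in TPM. Its retained-intron model of 2071 bases took 47.15% and 46.8% of the gene's TPM, with 2125 and 2641 counts. Coding transcripts held 49.2 and 50.1 TPM, which placed Agrn behind Itgb1 (113 and 115.7 coding TPM) and level with Dag1 (48 and 51.1). The ratio of Agrn to Itgb1 was 1.06 ± 0.0187 over all transcripts and 0.434 ± 0.00168 over coding ones, so that the order of the 2 highest genes turned with the transcripts counted. In Lama1, a processed transcript of 565 bases took 27.78% and 37.4% of the TPM on 43 and 83 counts. In Lama4 a retained-intron model of 511 bases took 29.37% and 29.67% on 37 and 61 counts. Coding levels were 11.3 and 11.9 TPM for Lama1 and 9.48 and 12.2 TPM for Lama4.

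The annotated class does not mark every short model. A model of Itgav that is 463 bases long and annotated as coding took 56.79% and 57.04% of the gene's TPM with 106 of 1354 and 162 of 1909 counts, and 1 of Lamc1 that is 1447 bases long took 29% and 35.57%. Lama5 fell below the limit on coding transcripts, at 0.6 and 0.89 TPM, and 28 members were then detected instead of 29. Itgb1, Itgb3, Itgb5, Itga2, Itga11 and Lamc3 kept 99.3% or more of their TPM on coding transcripts in both libraries. For Itga2 this included a coding model of 480 bases, which took 26.37% and 55.27% of the TPM on 3 and 9 counts. Its transcript of 7108 nt alone was at 1.03 and 0.78 TPM, under the limit in replicate 2.

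**Figure D2:**
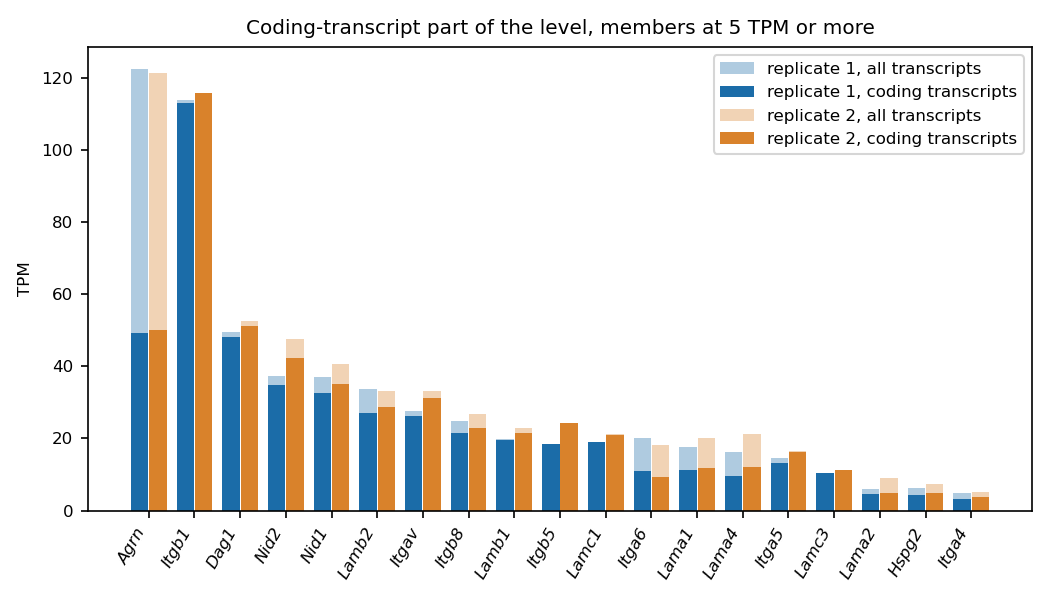
TPM of the 19 members at 5 TPM or more, as bars for replicate 1 (blue) and replicate 2 (orange); the pale full bar is the level over all transcripts and the dark part the level over transcripts annotated as protein coding. Under 75% of the Agrn, Itga6, Lama1, Lama4, Hspg2 and Itga4 bars is dark in each library, and Itgb1 overtakes Agrn.

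The members have long transcripts. The longest coding transcript had a median length of 5646 nt over the 42 genes and 2677 nt over all protein-coding genes, and it was 5000 nt or more in 25 members (59.5%) beside 16.8% of all. Hspg2, at 14187 nt, was the longest and Itgb7, at 2683 nt, the shortest of the members by this measure.

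Of the 19 members at 5 TPM, 12 (63.2%) had at least 2 transcripts that each took 10% or more of the TPM in both libraries, beside 59.9% of all protein-coding genes at that level. In Agrn, 2 full-length coding transcripts shared the coding level. The transcript of 7262 nt, which holds the y exon and both z exons shown above, was at 20.2 and 21.9 TPM, with deposited credibility intervals of 16.2 to 21.3 and 18.3 to 22.6. The transcript of 6891 nt, which skips all 3, was at 29.0 and 28.2 TPM, with intervals of 25.5 to 29.6 and 25.4 to 28.9. The skipping form was higher in each library, and the intervals of the 2 forms did not overlap. Over coding transcripts, those with the exons made up 42.5% ± 1.86 of the level. The annotation's coding transcripts hold the 3 exons together or not at all, so this share does not separate the y exon from the z exons. The 2 forms also differ in length by more than these exons, so the share need not rest on them alone. A coding transcript of 7193 nt that also skips all 3 was at 0 TPM in both libraries, with intervals reaching 3.3 and 2.19 TPM. Counting noncoding models as well, transcripts with the 24-base exon spliced in or inside a longer exon made up 75.8% ± 0.335 of those that span it, the 33-base exon 27.3% ± 0.61 and the 12-base exon 53% ± 0.902. The retained-intron model of 2071 bases carries the 24-base exon and skips the 33-base one, so the shares of these 2 exons rest largely on it. It does not reach the 12-base exon.

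Of the agrin receptors and partners, Lrp4, the binding subunit at the neuromuscular junction, was at 7.06 ± 0.58 TPM. Musk, the kinase it acts through, had 8 and 2 counts; this gene was picked after its value was seen.

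In Itga6 the order of the coding tail forms differed between the pools. The transcript of 4310 nt, with the exon shown above and so the A tail, was at 7.36 TPM in replicate 1 and 3.63 in replicate 2. The B transcript of 4156 nt, without it, was at 3.27 and 5.41 TPM. Coding transcripts that hold the exon took 70.1% of the coding level that spans it in replicate 1 and 41.5% in replicate 2; these shares include a minor coding model, at 0.32 and 0.20 TPM, in which the exon lies inside a longer one. The deposited credibility intervals of the A form were 4.98 to 8.89 and 1.96 to 5.32 TPM. Those of the B form were 1.16 to 5.22 and 3.3 to 6.74 TPM. For each form the 2 libraries overlapped, and within each library the 2 forms overlapped. A noncoding processed transcript of 2721 nt, at 7.91 and 6.69 TPM, also skips the exon. Counting noncoding models too, transcripts that hold the exon made up 40.7% and 24% of those that span it. The order thus differed only over coding transcripts. For Itga3 the transcripts with the exon made up 83.7% and 80.6% of the coding level, on 2.88 and 2.90 TPM with the exon and 0.56 and 0.70 TPM without it. The A form was the higher in both libraries for Itga3, unlike Itga6.

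**Figure D3:**
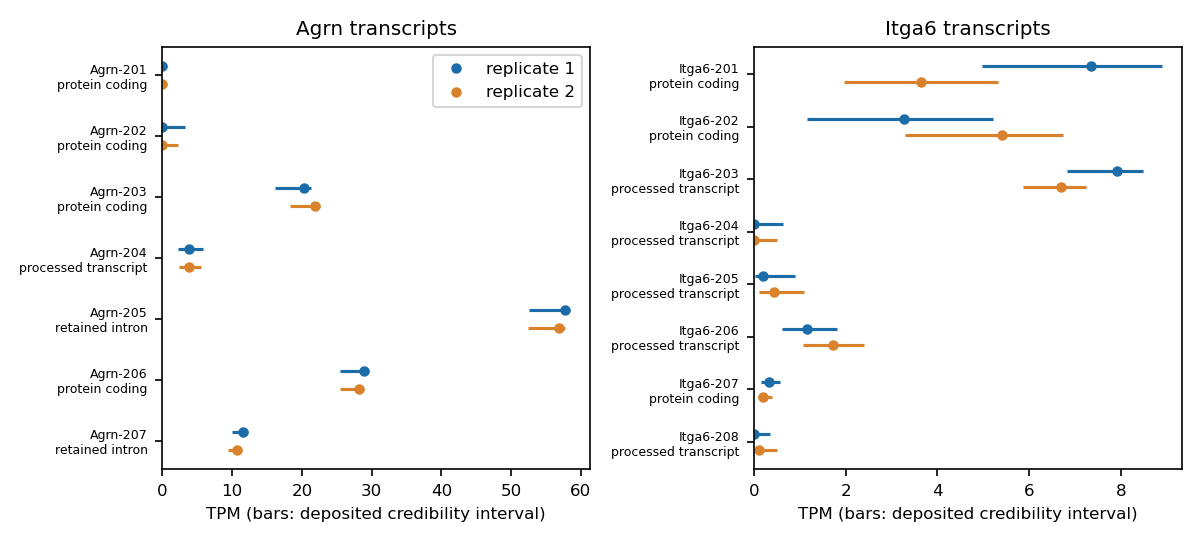
TPM of each annotated transcript of Agrn (left) and Itga6 (right) in replicate 1 (blue) and replicate 2 (orange); points are the deposited levels and bars the deposited credibility intervals, which belong to a posterior mean and need not be centred on the point. The Agrn forms keep their order in both libraries, and the points of the top 2 coding Itga6 transcripts, the A and B forms, change places.

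The pools were compared by expected counts, rounded and scaled by TMM, as log2 ratios of replicate 1 over replicate 2 with 95% exact conditional binomial (Clopper-Pearson) intervals. These intervals cover the counting error of reads only. Reads without molecular identifiers are not independent molecules, so the intervals may be too narrow. Of the members, 39 had 10 or more counts in a library; Itgb6, Itgax and Itgad had fewer. None of the 39 differed 2-fold with an interval off equality, beside 4.22% of the 19885 genes compared. With the limit at 1.5-fold there were 3, Itgam and Itgb4 among them. The share of all genes at that limit is not given here, so this count cannot be called high or low.

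The log2 ratio was below 0, toward replicate 2, in 30 of 39 members (76.9%), beside 52.8% of all genes compared. The interval lay wholly on the side of replicate 2 for 16 of 39 members (41%), beside 16.7% of all genes compared. It lay on the side of replicate 1 for 4 members (10.3%), beside 15.5% of all genes. Intervals are narrower at higher counts, and shares at matched counts were not computed. The median log2 ratio was -0.10 over the 39 members and -0.01 over all genes compared.

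The members farthest toward replicate 2, among those with 50 or more counts in a library, were Itgb4, Lama5, Lama4, Itgb3 and Itgb5. Itgb4 had 48 counts in replicate 1 and 96 in replicate 2, a log2 ratio of -0.64 (-1.17 to -0.12). Lama5 had 134 and 253 counts, a log2 ratio of -0.55 (-0.87 to -0.25). Lama4, with 1175 and 1920 counts, had a log2 ratio of -0.34 (-0.45 to -0.24). Itgb3 and Itgb5 were at -0.33 (-0.60 to -0.05) and -0.32 (-0.43 to -0.21) on the log2 scale. Nid2 had 3131 and 4853 counts and a log2 ratio of -0.27 (-0.33 to -0.20), whereas Nid1 was at -0.06 (-0.12 to -0.00). The levels of the nidogens were close in replicate 1, and Nid2 was 1.17 times Nid1 in replicate 2.

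The members farthest toward replicate 1 were all integrin alpha subunits. Itgam had 54 and 35 counts, a log2 ratio of 0.99 (0.35 to 1.65). Itga2 had 138 and 137 counts, a log2 ratio of 0.37 (0.02 to 0.73). Itga6, with 1265 and 1371 counts, and Itga1, with 566 and 614, both stood at 0.25, with intervals of 0.14 to 0.36 and 0.08 to 0.41. Itga10 was at 0.21 (-0.35 to 0.77). Both members above 100 TPM had intervals that held equality, Agrn at 0.03 (-0.00 to 0.07) and Itgb1 at -0.00 (-0.05 to 0.04). So did laminin chains, among them Lamb2 at -0.02 (-0.09 to 0.06), Lamc1 at 0.01 (-0.07 to 0.09) and Lama1 at -0.04 (-0.12 to 0.05). For these 5 genes every interval bound lay within 0.12 of equality on the log2 scale. Other abundant members lay toward replicate 2, among them Dag1 at -0.08 (-0.14 to -0.03) and Itgav at -0.13 (-0.23 to -0.03). Lamc3, Lama2, Lama3 and Lamb3 also had intervals that held equality, each wider than those of the 5 genes above.

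**Figure D4:**
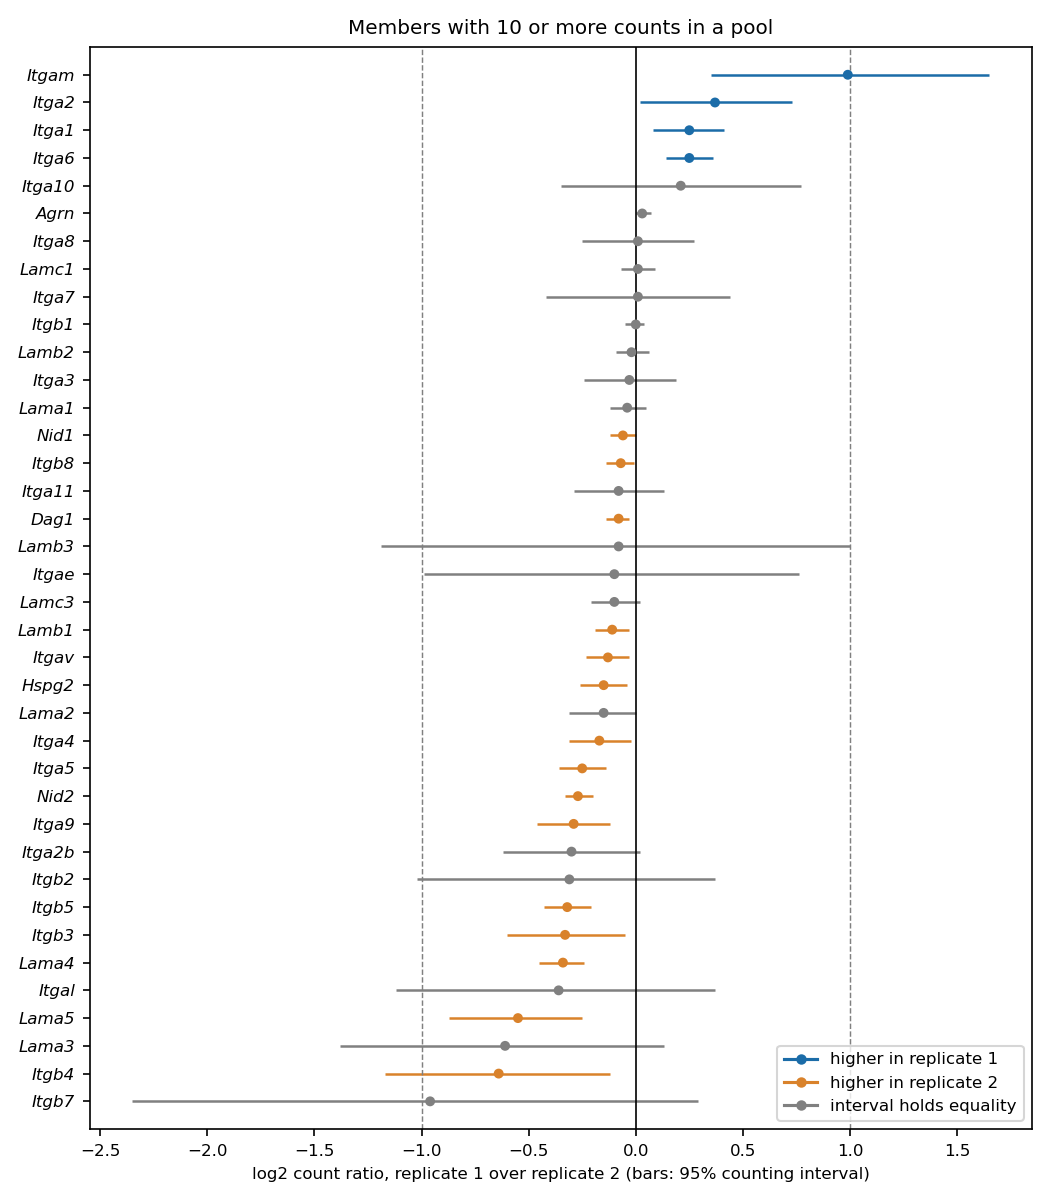
Log2 ratio of replicate 1 over replicate 2 in scaled counts for 38 of the 39 members with 10 or more counts in a library; bars are 95% counting intervals, blue where they lie above 0, orange where they lie below it and grey where they hold it, with dashed lines at 2-fold. There are 4 blue, 15 orange and 19 grey members.

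Ratios of the deposited TPM did not always follow the counts. For 7 of the 39 members, Itga2, Itga9, Itga10, Itgb4, Lama2, Lama5 and Lamb3, the log2 TPM ratio lay 0.3 or more from the count ratio. The share of all genes with such a gap is not given here, so it cannot be called particular to the members. Itga2 reversed, from 0.37 in counts to -0.31 in TPM, and so did Itga10, from 0.21 to -0.23. Itga9 moved from -0.29 to -0.76, Lama2 from -0.15 to -0.62, and Lamb3 from -0.08 to 1.03. The gene length that the quantification assigned to Lama2 was 5279 nt in replicate 1 and 3925 nt in replicate 2, against a longest transcript of 9614 nt. The TPM of these genes thus depends on a split of reads among transcripts that their counts do not use.

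Several cell type marker lists also lay toward replicate 2. Meningeal and mesenchymal markers had intervals on that side for 11 of 12 genes and on the other for 0, with a summed level of 1053 TPM in replicate 1 and 1500 in replicate 2 and a median log2 ratio of -0.40; Postn was the gene among them past 2-fold. Endothelial markers lay there for 7 of 10 genes, with 1 on the other side (157 and 176 TPM summed), and pericyte and smooth muscle markers for 3 of 8, with 0 on the other side (99.2 and 124 TPM). Microglia and macrophage markers lay there for 6 of 12 genes, with 0 on the other side, and surface epithelium markers for 5 of 8, with 1 on the other side. Neuron markers lay on the side of replicate 1 for 8 of 12 genes, with 2 on the side of replicate 2 (2441 and 2371 TPM), and neural progenitor markers for 5 of 12, with 5 on the other side (3087 and 3128 TPM). Skeletal muscle markers summed to 13.2 and 14 TPM, with Myf6 at 0 in both. Only the skeletal muscle and the lymphocyte and neutrophil lists held a marker at 0 in both libraries. The part of these cell types in the members' ratios was not tested. Of the lymphocyte and neutrophil markers 3 had enough counts to compare: S100a8, past 2-fold at 1.16 (0.58 to 1.75), and S100a9 at 0.87 (0.17 to 1.58) lay toward replicate 1, and Mpo was at -0.34 (-1.02 to 0.33).

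The genes around the members were described from 6 lists. Of 23 other basement membrane genes 19 reached 1 TPM; Sparc, a collagen-binding matrix protein, was highest at 407 ± 66.9 TPM and Frem2 the lowest detected at 1.39 ± 0.198. Col4a1, a chain of the main collagen IV network, was at 125 ± 18.1 TPM; it and Fn1 below were picked as known partners after their values were seen. In this list 12 of 22 genes compared had intervals on the side of replicate 2 and 0 on the side of replicate 1, with a median log2 ratio of -0.18. Of 16 other integrin ligands 14 were detected, from Vtn (vitronectin) at 91.1 ± 21.1 TPM to Tgfb1 at 1.11 ± 0.106. Fn1 (fibronectin) was at 77.1 ± 10.7 TPM. Of 15 ligands compared, 12 had intervals on the side of replicate 2 and 3 on the side of replicate 1. Madcam1, with 10 and 38 counts, was past 2-fold at -1.56 (-2.73 to -0.53).

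Inside the cell, 22 of 25 focal adhesion genes were detected, from Ilk, the integrin-linked kinase, at 159 ± 9.76 TPM to Lims2 at 3.03 ± 0.523. Of these 25, 14 had intervals on the side of replicate 2 and 1 on the side of replicate 1. All 17 genes of dystroglycan glycosylation, which builds the sugar that laminin and agrin bind, were detected, from Dpm2 at 88.8 ± 4.95 TPM to Large2 at 4.67 ± 1.41. Their median log2 ratio was -0.03, with 3 intervals on the side of replicate 2 and 2 on the side of replicate 1. Of 13 dystrophin complex genes 11 were detected, from Sgce at 50.3 ± 3.51 TPM to Sntb1 at 1.43 ± 0.255, and Sgca, a sarcoglycan gene of muscle, had 1 count in all. Here 4 of 11 had intervals on the side of replicate 2 and none on the side of replicate 1. Of 8 other laminin and agrin receptors 6 were detected, from Sdc1, a syndecan, at 57.2 ± 7.03 TPM to Lrp4. Of 7 compared, 3 had intervals on the side of replicate 2 and 2 on the side of replicate 1. No gene compared in the focal adhesion, basement membrane, dystrophin, glycosylation and receptor lists was past 2-fold. Musk, with 8 and 2 counts, had too few to be compared.

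**Figure D5:**
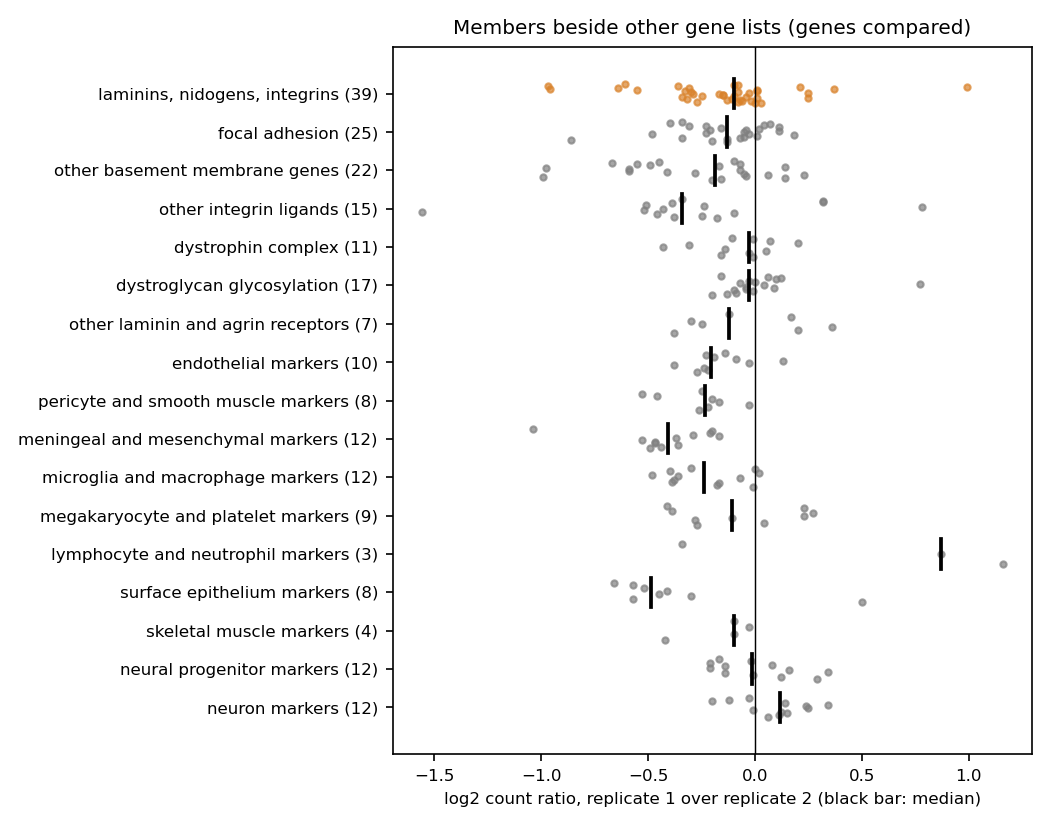
Log2 count ratio of replicate 1 over replicate 2 for the members (orange) and for the genes of 6 pathway lists and 10 marker lists (grey) with 10 or more counts in a library; black bars are medians and numbers in brackets count genes. The median is -0.10 for the members, -0.40 for the meningeal and mesenchymal markers and 0.12 for the neuron markers.

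The deposited tables also quantify the same reads against the older annotation M4, in which all 42 members were found. Only Itgb7 differed 1.5-fold or more the same way in both libraries, 3.56 and 3.91 times higher in M21, out of 41 members above 0 in all 4 gene tables, beside 5.4% of all protein-coding genes. Its level rested on 8 and 20 counts. For the 28 members at 1 TPM or more in both annotations and libraries the median ratio of M21 to M4 was 0.952, the same as over all protein-coding genes so detected. Lama1 stood apart from that median, 1.41 and 1.54 times higher in M21, as did Itga7 at 1.38 and 1.47 times. Among others, the ratio of M21 to M4 was 1.24 and 1.26 for Itga1, 1.45 and 1.13 for Lama2 and 0.871 and 0.825 for Lamb1. Itga2 was 1.12 times higher in replicate 1 and 2.12 times in replicate 2.

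Some members overlap other genes, and whether counting used the strand is not given in the sources used here. Nid2 shares 437 exonic bases with Rtraf on the opposite strand, which stood at 177.7 and 183.6 TPM. The deposited posterior SD of the Nid2 count, which covers only the division of reads among models, was 5.17 and 6.31 counts, the largest of the members. Itga4 shares 1124 bases with Cerkl on the opposite strand, at 3.17 and 2.04 TPM. Overlaps with protein-coding genes on the same strand cannot be resolved by strand. Itgam shares 3450 bases with Gm49368 (0 and 0 TPM) and Itga10 1739 with Gm42957 (0.06 and 0 TPM). Itga1 shares 685 with Gm49395 (1.11 and 1.6 TPM). All of these members were among those farthest toward replicate 1, and the part of the overlaps in their counts was not tested. For 29 of the 42 members the posterior SD of the count was 0 in both libraries, and the share of all genes is not given here.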

How the data were processed

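The 42 genes and all lists were chosen with earlier results of these data known. Per the manifests beside the tables, the authors quantified each library against annotations M4 and M21 of assembly mm10; the sources used here do not give the tool or the strand setting. Totals of expected counts on genes were 29056787 and 37122499. Per the file headers, the deposited tables hold expected counts (estimated reads, unscaled), TPM, FPKM, credibility intervals of TPM and, for transcripts, the percent of the gene's TPM. M21 was the main annotation. Rows that name no gene, 4.02% and 3.38% of counts, were left out.

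Levels are deposited TPM; detection means 1 TPM in both libraries. For ratios, expected counts were rounded and scaled by TMM (edgeR 4.0.16, R 4.3.3), with at least 10 counts in a library; a difference needed 2-fold and a 95% interval off equality. The ratio step was tested on simulated data. All but 1 of the members are named, since 1 member and 1 list gene are not reported here; the 5 highest and 5 lowest ratios at 50 counts, and the highest and lowest detected gene of each pathway list, are given in full. Coding levels sum the TPM of transcripts annotated as protein_coding. Exon sequences came from the M21 transcripts. Protein sequences were not used here. Pools are labelled biological replicates, and the SD over n = 2 describes them alone. Alternatives were other scalings (DESeq2 1.42.0 size factors among them), limits and the M4 tables.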

Additional observations from a re-analysis of the deposited data

How the results depend on the processing

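The number of members detected, 29, fell to 19 with a limit of 5 TPM, stayed between 25 and 32 under the other limits, FPKM, the M4 annotation and coding transcripts alone (the last chosen after seeing the data), and was 31 and 29 without replicate 1 and without replicate 2. The count of members 2-fold between the pools was 0 by counts and TMM. It became 1 with ERCC spike-in totals, 3 by the ratio of deposited TPM and 3 with a 1.5-fold limit. The other 5 settings, M4 among them, left it at 0. Shares of all genes under these settings are not given here. The median log2 ratio, -0.10, moved to -0.37 with ERCC totals, which shift the median of all genes from -0.01 to -0.28; under the other settings it ran from -0.19 to -0.08. The count of members 1.5-fold between annotations, 1, was 0 among members at 1 TPM or more throughout, and ran from 1 without replicate 2 to 4 without replicate 1. The count with several transcripts, 12, fell to 7 at 20 percent and was 13 with M4, 17 without replicate 1 and 13 without replicate 2. No paired analysis was possible because there is only 1 group. Depth limits the members under 1 TPM most: of 13, 3 had too few counts to compare.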
